A study of Homo sapiens with 9 samples.

Results

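The unfolded protein response and the integrated stress response were followed through 10 genes among the 78899 gene IDs counted in each library. They are ATF4, DDIT3, ASNS, TRIB3, CHAC1, SESN2, HSPA5, XBP1, HERPUD1 and PPP1R15A, matched by symbol. All 10 were found and all 10 passed the filter on low counts. The libraries are from HaCaT, an established immortalized human keratinocyte line, and every group was grown in high-glucose DMEM with low-calcium serum and antibiotics. There were 3 libraries of a sorted subpopulation called BD, 3 of a sorted subpopulation called NBD, and 3 called control, which the labels give as the cell line. The control is not described as sorted. In every comparison with control, sorting and handling therefore cannot be told apart from the subpopulation itself. The study set out to characterise transcription in subpopulations linked to progenitor states. No drug, deletion or transgene is given for any group, and the labels do not spell out BD or NBD. All cells are from 1 immortalized line. Since no label describes the replicates as separate cultures, the p-values below cover only the spread seen among these libraries, and that spread may be technical.

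Both responses adjust protein synthesis to stress. In the integrated stress response, kinases that sense amino acid shortage, viral RNA, haem shortage or misfolded protein in the endoplasmic reticulum (ER) phosphorylate the initiation factor eIF2 alpha, which lowers general translation and raises translation of the ATF4 mRNA. ATF4, a bZIP transcription factor, then drives genes of amino acid supply, redox control and cell fate. In the unfolded protein response, PERK (EIF2AK3) feeds into the same step, ATF6 is cleaved to an active factor, and IRE1 (ERN1) removes a short intron from the XBP1 mRNA. Keratinocytes are known to engage these pathways during differentiation and barrier formation. Since ATF4 is controlled largely in translation, its mRNA level is not a measure of its protein.

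Sequences near the start sites of the members show the elements these pathways are known to use, and those that held a motif are printed here to show which pathway's element each promoter holds. The windows run from 250 bases before to 50 bases after each start (RefSeq, GRCh38.p14), and 5 of the 10 members had a match. Sequences are 5′ to 3′ on the strand of the gene, capitals mark the motif, and positions count from the start site. Both strands were searched. The CARE core, TGATGNAA, is bound by ATF4 with C/EBP partners, and was found in 3.62% of 34943 windows of the same length.
ASNS: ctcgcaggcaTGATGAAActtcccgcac
CHAC1: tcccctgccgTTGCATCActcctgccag
The ASNS stretch printed is chr7:97872459-97872486 on the minus strand, with its motif from position -68 to -61. The CHAC1 stretch is chr15:40953252-40953279 on the plus strand, with its motif from position -209 to -202 on the opposite strand. The ER stress element (ERSE) is bound by NF-Y and ATF6 and was found in 0.0773% of windows.
HSPA5: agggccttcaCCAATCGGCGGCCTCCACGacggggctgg
XBP1: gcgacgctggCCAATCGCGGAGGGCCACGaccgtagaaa
The HSPA5 stretch is chr9:125241381-125241419 on the minus strand, with its motif from position -66 to -48. The XBP1 stretch is chr22:28800593-28800631 on the minus strand, with its motif from position -52 to -34. HERPUD1, printed from chr16:56931956-56932045 on the plus strand, held a CARE core on the opposite strand from position -176 to -169. It also held the second type of ER stress element (ERSE-II), from position -117 to -107, which was found in 0.0544% of windows.
HERPUD1: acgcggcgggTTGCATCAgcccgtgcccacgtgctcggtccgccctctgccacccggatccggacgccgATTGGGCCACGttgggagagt
TGACGTGG, the core of an element bound by spliced XBP1, was found in 0.73% of windows and in no member's window. ATF4, DDIT3, TRIB3, SESN2 and PPP1R15A had no match to any of the 4 motifs in these windows. A match is a description of letters and was tied to no measurement here.

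The libraries held 17128797 to 29512856 counts. Control replicates 1 and 2 had the lowest totals (18054999 and 17128797) and the lowest shares of mitochondrial rRNA (12.3% and 11.9%), against 20.7% in control replicate 3 and 17.3% to 28.9% in the sorted libraries. The 10 keratinocyte markers were present throughout, with a summed level of 2348 to 3583 CPM (counts scaled to a common library total) in the sorted libraries and of 4368, 4757 and 3115 CPM in control replicates 1 to 3. Markers of other cell types were low: the summed level was at most 5.24 CPM for 7 fibroblast markers, 5.63 CPM for 6 melanocyte markers, 7.13 CPM for 7 immune markers and 19.0 CPM for 5 endothelial markers. At most 3 counts in every library were found for 3, 4, 4 and 2 of these markers, respectively. The endothelial sum ran from 6.74 to 19.0 CPM over 7 libraries, against 2.61 CPM in control replicate 1 and 1.85 CPM in control replicate 2. The fibroblast sum likewise ran from 2.89 to 5.24 CPM over those 7, against 0.766 and 1.29 CPM, and the immune sum from 3.96 to 7.13 CPM, against 1.23 and 0.673 CPM. Single genes reached most of these levels: CDH5 up to 18.8 CPM among the endothelial markers and CD14 up to 6.86 CPM among the immune markers. At their highest, these 2 sums thus came largely from 1 gene each and do not show cells of another type. The part of depth, mitochondrial rRNA and these markers in the results below was not tested. In such bulk samples, fewer cells of a type and less RNA per cell cannot be told apart.

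Over the 10 genes, the main division lay inside the control group and not between the subpopulations. For 7 members (DDIT3, TRIB3, CHAC1, SESN2, XBP1, HERPUD1 and PPP1R15A), control replicates 1 and 2 were both below each of the other 7 libraries, and for 0 members both were above them. Over all 16921 genes tested, 21.6% lay below in this way and 18.9% above. Control replicate 3 was within the range of the 6 sorted libraries for 8 members. The exceptions were DDIT3 and HSPA5, which were lower in it than in any sorted library. BD replicate 2 was the highest library for 6 members, and control replicate 1 the lowest for 8. For these counts and that of control replicate 3 within the sorted range, the share of all genes was not computed. They may therefore describe the libraries at large rather than these genes. For 6 members (ATF4, DDIT3, CHAC1, XBP1, HERPUD1 and PPP1R15A), replicate 1 was also the lowest library inside each of the 3 groups, against 9.89% of all genes, a pattern noticed after the values were seen. Comparisons with control are therefore given over all 3 control libraries and again without control replicate 3, and both comparisons share those controls. The omission was thus chosen after this division was seen in the same values. It also leaves 2 controls that are much alike. The chi-square of counts per degree of freedom was 15.0 between control replicates 1 and 2. Between these and control replicate 3 it was 192 and 188.

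**Figure D1:**
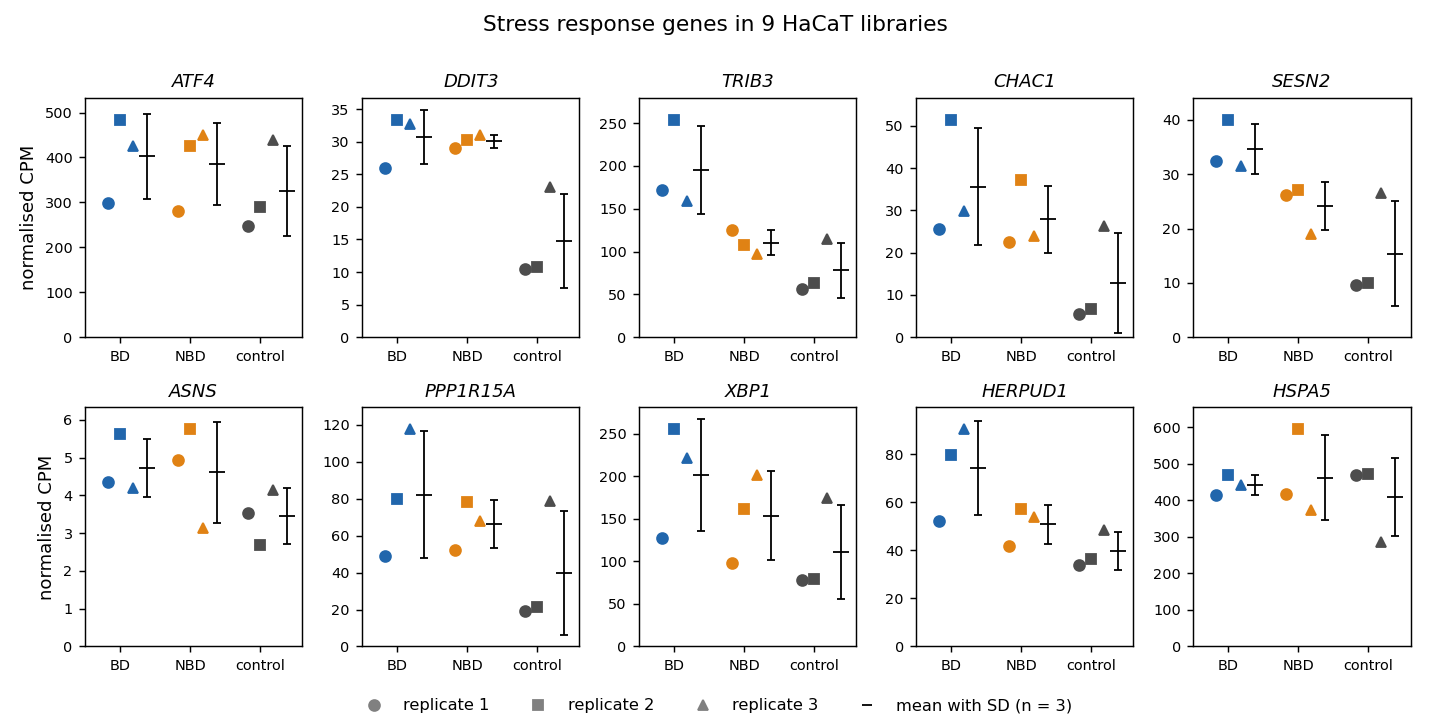
Level of each of the 10 genes in each of the 9 libraries, in CPM on axes that start at 0, with 1 point per library and the mean with SD of each group of 3. CHAC1 reads 5.42 and 6.62 CPM in the first pair of control replicates and lies between 22.6 and 51.4 CPM elsewhere, while HSPA5 shows no such division.

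Corrected for transcript length, ATF4 and HSPA5 were the most abundant members in every group and ASNS the least. In RPKM (reads per kilobase of merged exons, on the CPM scale, mean ± SD, n = 3), ATF4 stood at 160 ± 37.5 in BD, 153 ± 36.5 in NBD and 130 ± 40.1 in control. HSPA5 followed at 113 ± 7.01, 118 ± 29.9 and 105 ± 27.4 RPKM, and the ranges of these genes overlapped in each group. Below HSPA5 the order in BD was XBP1 (66.5 ± 21.8), TRIB3 (56.7 ± 15.0), PPP1R15A (26.6 ± 11.1), DDIT3 (23.5 ± 3.14), CHAC1 (17.3 ± 6.73), HERPUD1 (14.4 ± 3.82), SESN2 (10.0 ± 1.35) and ASNS (1.06 ± 0.174 RPKM). In BD the values of HSPA5 lay entirely above those of XBP1, those of TRIB3 above PPP1R15A and those of SESN2 above ASNS, and all other neighbours overlapped. In NBD, neighbours were separate at HSPA5 over XBP1, TRIB3 over DDIT3, HERPUD1 over SESN2 and SESN2 over ASNS. In control they were separate only at HSPA5 over XBP1 and SESN2 over ASNS. TRIB3 stood at 56.7 ± 15.0 RPKM in BD against 32.0 ± 4.23 in NBD and 22.8 ± 9.29 in control. ASNS was near 1 RPKM throughout (1.03 ± 0.299 in NBD and 0.775 ± 0.164 in control). Its rank is uncertain, since reads in exonic bases that it shares with another transcript may not have been counted. Merged exon lengths are long for genes with many annotated transcripts such as HERPUD1, which lowers their RPKM.

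**Figure D2:**
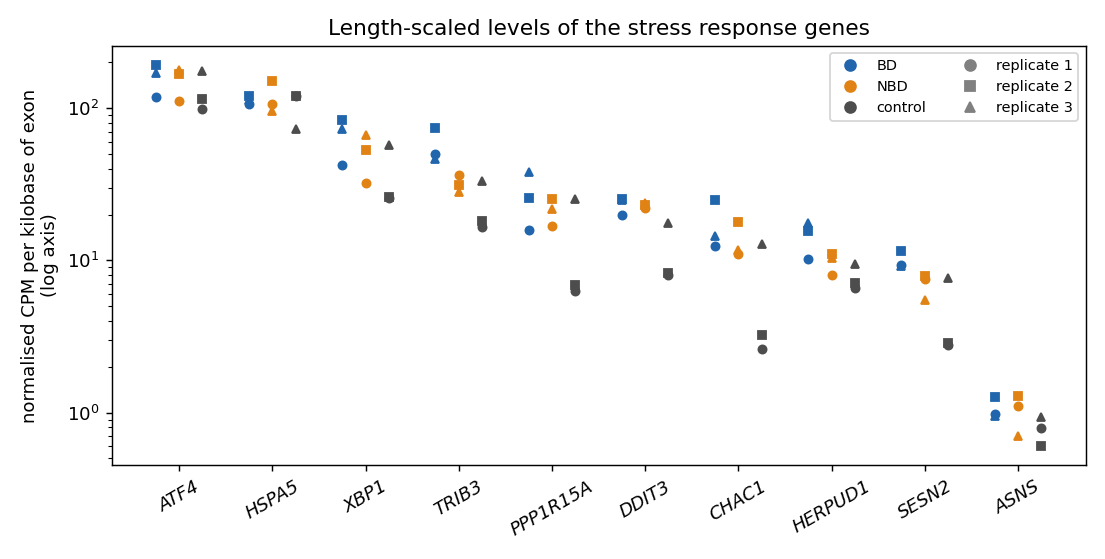
Length-corrected level of each member in RPKM on a log axis, with 1 point per library, coloured by group and shaped by replicate. ATF4 and HSPA5 lie above 100 RPKM on average in each group and ASNS near 1 RPKM.

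The factor at the head of the integrated stress response, ATF4 (chr22:39519695-39522685, GRCh38), stood at 299, 484 and 425 CPM in BD replicates 1 to 3, at 280.5, 425 and 451 CPM in NBD, and at 247, 290.3 and 439 CPM in control. Replicate 1 was the lowest library of each group, and the 3 groups overlapped. The largest of its log2 differences was 0.31 ± 0.29 (SE) for BD over control, with an edgeR adjusted p of 0.600. Without control replicate 3 it was 0.59 ± 0.27, with an adjusted p of 0.132 in edgeR.

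DDIT3, which encodes the transcription factor CHOP and is induced through ATF4, separated both subpopulations from control. It stood at 25.9, 33.3 and 32.7 CPM in BD, 29.0, 30.2 and 31.0 CPM in NBD, and 10.5, 10.8 and 23.1 CPM in control. Every sorted library was above every control library, and the sorted groups overlapped closely. On the log2 scale the difference was 1.05 ± 0.29 for BD over control and 1.02 ± 0.29 for NBD over control, with edgeR unadjusted p-values of 0.00453 and 0.0054 and Benjamini-Hochberg adjusted p-values of 0.333 and 0.539. DDIT3 (chr12:57516588-57521737, minus strand) shares 355 exonic bases with MARS1 on the opposite strand, which held 4089 to 8230 counts, and the sources used here give no strand setting for the counting. How many of its counts came from MARS1 was not tested.

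TRIB3, a pseudokinase induced by ATF4 and CHOP that dampens ATF4 activity, showed the largest gap of any member between the subpopulations. It stood at 172, 254 and 159 CPM in BD, at 125.5, 108 and 96.7 CPM in NBD, and at 56.8, 62.8 and 115 CPM in control. The lowest BD library was above the highest of the other 6. The log2 difference was 0.82 ± 0.29 for BD over NBD (1.77-fold), with an unadjusted p of 0.0163 and an adjusted p of 0.814 in edgeR. Against control, BD was higher by 1.32 ± 0.29 on the log2 scale (2.49-fold), with an edgeR adjusted p of 0.333.

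CHAC1, an enzyme that degrades glutathione and is a target of ATF4, varied most over the libraries, 9.49-fold from lowest to highest. It stood at 25.6, 51.4 and 29.8 CPM in BD, 22.6, 37.1 and 24.0 CPM in NBD, and 5.42, 6.62 and 26.4 CPM in control. Control replicate 3 was within the sorted range, so the groups overlapped although the means were 35.6 ± 13.8, 27.9 ± 7.99 and 12.8 ± 11.8 CPM (SD, n = 3). The log2 difference from control was 1.47 ± 0.55 for BD and 1.11 ± 0.54 for NBD, with edgeR adjusted p-values of 0.343 and 0.539.

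SESN2, a leucine-binding inhibitor of mTORC1, stood at 32.4, 40.0 and 31.6 CPM in BD, 26.2, 27.1 and 19.1 CPM in NBD, and 9.66, 9.92 and 26.6 CPM in control. Every BD library was above every library of the other groups, and NBD overlapped with control only through control replicate 3. The log2 difference was 1.16 ± 0.37 for BD over control and 0.52 ± 0.36 for BD over NBD, with edgeR adjusted p-values of 0.333 and 0.848. ASNS, which makes asparagine and is a classical amino acid response gene, stayed low at 4.34, 5.61 and 4.20 CPM in BD, 4.93, 5.75 and 3.15 CPM in NBD, and 3.53, 2.69 and 4.14 CPM in control. BD was just above control without overlap, by 0.45 ± 0.32 on the log2 scale, with an edgeR adjusted p of 0.506. ASNS shares 1985 of its 4455 merged exonic bases with a transcript on the same strand that held 1 to 10 counts. How reads in shared bases were counted is not given, so the level of ASNS may be too low. This was not tested.

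PPP1R15A encodes GADD34, which directs a phosphatase to eIF2 alpha and so closes the loop. It stood at 48.8, 80.1 and 118 CPM in BD, 52.3, 78.1 and 67.8 CPM in NBD, and 19.4, 21.2 and 78.8 CPM in control. The spread inside BD and inside control was wide, and control replicate 3 exceeded 4 of the 6 sorted libraries. The log2 difference was 1.04 ± 0.51 for BD over control, with an edgeR adjusted p of 0.382.

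Among the ER genes, HSPA5 (BiP, the main ER chaperone and the inhibitor of the ER stress sensors) went its own way. It stood at 414, 469 and 442 CPM in BD, 417, 594 and 374 CPM in NBD, and 468.5, 472 and 285 CPM in control. Control replicates 1 and 2 were among the higher libraries and control replicate 3 was the lowest of all 9. Its log2 differences were -0.064 ± 0.25 for BD over NBD, 0.11 ± 0.25 for BD over control and 0.18 ± 0.25 for NBD over control, and edgeR adjusted p-values were 0.781 or more.

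XBP1, the factor activated by IRE1, stood at 128, 255 and 222 CPM in BD, 97.9, 161 and 202 CPM in NBD, and 77.9, 79.6 and 174 CPM in control. The groups overlapped through control replicate 3, and the log2 difference of BD over control was 0.86 ± 0.39, with an edgeR adjusted p of 0.361. The intron that IRE1 removes is 26 bases long and is annotated at chr22:28796124-28796149 on the minus strand in the coding sequence (GENCODE 29, GRCh38). The same source also annotates it 2 bases further on. Both placements leave the same spliced mRNA, so the annotation does not fix the exact bases that IRE1 cuts out. The placement with these coordinates is shown in capitals, because splicing of the intron, not the gene's level, marks activation.
XBP1 intron: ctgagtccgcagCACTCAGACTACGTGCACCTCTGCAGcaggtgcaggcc
Counts per gene do not separate the mRNA with the intron from the mRNA without it, so IRE1 activity was not measured here. HERPUD1, an ER membrane protein of the degradation machinery, stood at 52.4, 79.9 and 90.5 CPM in BD, 41.7, 57.1 and 53.8 CPM in NBD, and 33.9, 36.6 and 48.6 CPM in control. All BD libraries were above all control libraries. The log2 difference was 0.90 ± 0.24 for BD over control and 0.55 ± 0.24 for BD over NBD, with unadjusted p-values of 0.00335 and 0.0432 and adjusted p-values of 0.333 and 0.814 in edgeR.

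Between the subpopulations, TRIB3, SESN2 and HERPUD1 had the highest ratios of BD to NBD, and no member passed the test. Of the 10 members, 0 were called by edgeR at an adjusted p under 0.05, where 0.0177% of all genes were called. DESeq2 also called 0 members and 0.343% of all genes. In edgeR, 2 (TRIB3 and HERPUD1) had an unadjusted p under 0.05, against 5.86% of all genes. The BD and NBD libraries did not overlap for 2 members, TRIB3 and SESN2, both higher in BD, against 7.19% of all genes higher without overlap. The median log2 difference of the members was 0.33, beside -0.015 over all genes, and 9 of 10 were above 0. Leaving out BD replicate 2 lowered that median to 0.081, with 5 of 10 above 0.

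Against control, 7 of the 10 members were at least 1.82-fold higher on average in BD, yet no member passed the edgeR test over all 9 libraries. There edgeR called 0 members and 0% of all genes. At an unadjusted p under 0.05, 6 members were higher (TRIB3, HERPUD1, DDIT3, SESN2, CHAC1 and XBP1), against 4.73% of all genes. DESeq2 called 1 member, TRIB3, at 1.31 ± 0.31 on the log2 scale with an adjusted p of 0.00962, where it called 0.987% of all genes. BD and control libraries did not overlap for 5 members, all higher in BD, against 8.05% of all genes. The median log2 difference was 0.97, beside 0.027 over all genes.

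For NBD against control, 10 of 10 log2 differences were above 0, with a median of 0.48 beside 0.037 over all genes. The highest were CHAC1 at 1.11 ± 0.54 and DDIT3 at 1.02 ± 0.29, and HSPA5 was lowest at 0.18 ± 0.25. edgeR called 0 members and 0% of all genes, and DESeq2 called 0 members and 0.177% of all genes. DDIT3 alone had an unadjusted p under 0.05, against 9.13% of all genes, and was the 1 member whose groups did not overlap, against 4.67% of all genes higher without overlap.

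**Figure D3:**
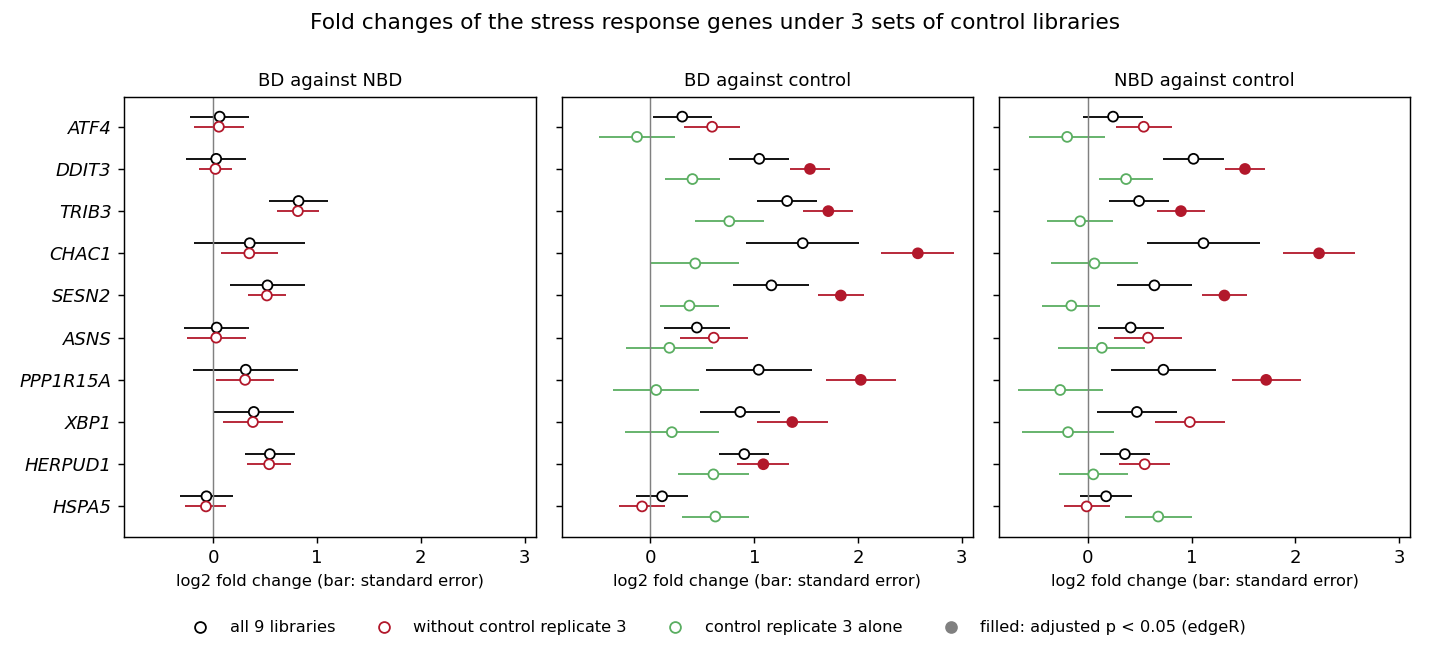
Log2 differences of the 10 members with standard errors for the 3 comparisons, over all 9 libraries, without control replicate 3, and with control replicate 3 as the only control, filled where edgeR called the gene. CHAC1 in BD over control moves from 1.47 to 2.58 without control replicate 3 and to 0.43 with it alone.

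Without control replicate 3, edgeR called 7 members higher in BD than in control: CHAC1, PPP1R15A, SESN2, TRIB3, DDIT3, XBP1 and HERPUD1. It called 24.3% of all genes there, 13.8% higher and 10.5% lower. The 7 are the members for which control replicates 1 and 2 lay below all other libraries. Their calls, and those in NBD below, are therefore not separate support for that division. CHAC1 rose by 2.58 ± 0.35 on the log2 scale (5.96-fold) with an adjusted p of 0.000845, and PPP1R15A by 2.03 ± 0.34 (4.07-fold) with an adjusted p of 0.00224. SESN2 rose by 1.83 ± 0.22, TRIB3 by 1.71 ± 0.24 and DDIT3 by 1.54 ± 0.19, with edgeR adjusted p-values of 0.000405, 0.000958 and 0.000511. XBP1 rose by 1.37 ± 0.34 and HERPUD1 by 1.09 ± 0.25, with edgeR adjusted p-values of 0.0158 and 0.0104. ASNS (0.61 ± 0.33), ATF4 (0.59 ± 0.27) and HSPA5 (-0.081 ± 0.22) did not pass. The median was 1.45, beside 0.043 over all genes.

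In NBD, the same omission gave 5 called members, all higher, where edgeR called 18.2% of all genes, 11.6% higher and 6.56% lower. They were CHAC1 (2.23 ± 0.35), PPP1R15A (1.72 ± 0.33), DDIT3 (1.51 ± 0.19), SESN2 (1.32 ± 0.22) and TRIB3 (0.90 ± 0.23). XBP1 at 0.98 ± 0.34 and HERPUD1 at 0.55 ± 0.24 did not pass, with edgeR adjusted p-values of 0.0671 and 0.142. With control replicate 3 as the only control, edgeR called 0 members and 0% of all genes in both comparisons, with 1 member at an unadjusted p under 0.05 for BD and 0 for NBD. In that fit the spread of the single control is assumed to be that of the sorted groups. The median log2 difference was then 0.39 for BD and -0.011 for NBD. Over all 9 libraries with no filter on low counts, edgeR called 7 members in BD, where it called 2.95% of all genes. It called 2 in NBD, where it called 1.51%, and all were higher than control. The median log2 difference of the members in BD was 0.97 with and without the filter, so these calls did not come with larger differences. The standard errors changed instead. For BD over NBD, they were 0.24 to 0.26 without the filter for every member but ASNS, which had 0.41. With the filter, the same genes had 0.24 to 0.53. The unfiltered fit thus gave nearly the same standard error to genes of unlike spread, and its calls are not separate support.

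Other genes of these pathways were taken from 8 lists of 130 genes in all, of which 123 were tested. Over all 9 libraries, edgeR called 0 of them in each comparison. At an unadjusted p under 0.05 in edgeR there were 5 in BD against NBD, beside 5.86% of all genes, and 4 in NBD against control, beside 9.13%. There were 19 in BD against control, where 4.73% of all genes were higher and the share in either direction was not computed. DESeq2 called 1 in BD against NBD, where it called 0.343% of all genes. Without control replicate 3, edgeR called 27 in BD against control (22 higher and 5 lower) and 20 in NBD against control (15 higher and 5 lower), and 0 between BD and NBD, where 0.0901% of all genes were called. The 27 are 22.0% of the 123, beside 24.3% of all genes, and the 20 are 16.3%, beside 18.2%, so the pathway genes were called at a share near or below that of all genes. The counts for single lists below stand beside 13.8% of all genes called higher and 10.5% lower in BD, and 11.6% higher and 6.56% lower in NBD. With control replicate 3 as the only control, edgeR called 0 of the 123 in both comparisons, with 0 at an unadjusted p under 0.05 in BD and 2 in NBD.

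**Figure D4:**
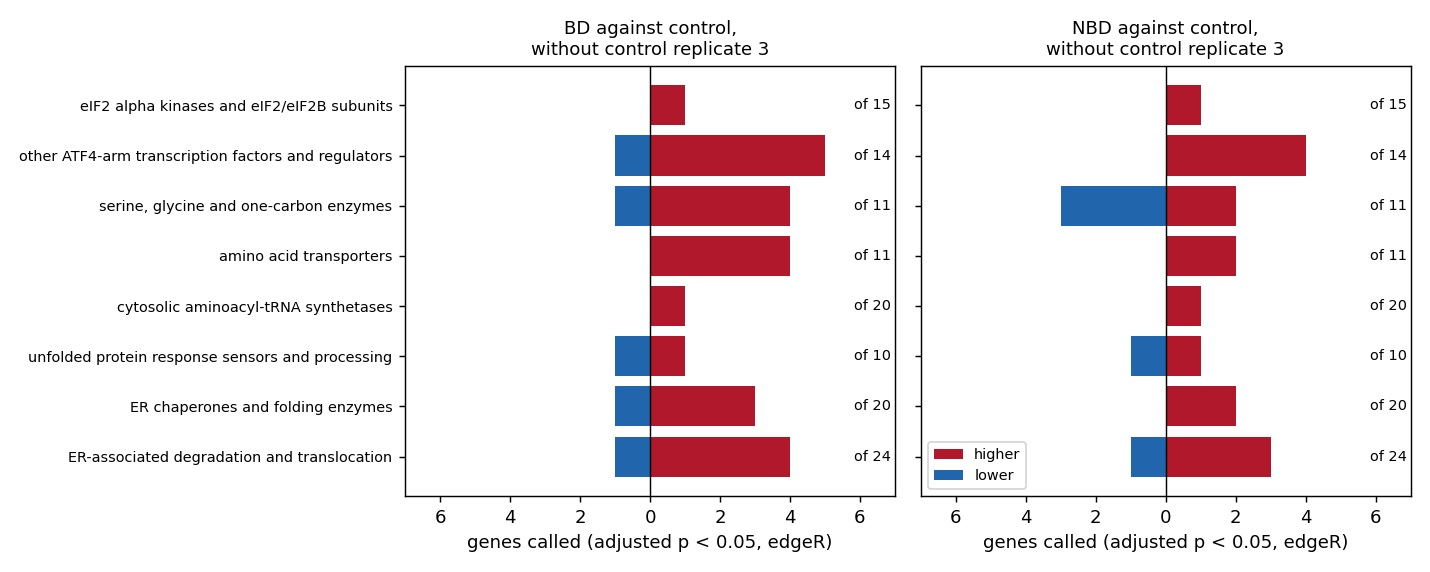
Number of genes of each of the 8 pathway lists called higher or lower than control by edgeR without control replicate 3, for BD and for NBD. The list of other ATF4-arm regulators holds 5 called higher and 1 lower in BD, and the list of eIF2 kinases and subunits 1 higher and 0 lower. That 1 gene, DNAJC3, is also counted in the list of ER chaperones.

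Among the other factors and regulators of the ATF4 arm, ATF3 changed most. Of 14 tested without control replicate 3, 5 rose and 1 fell in BD, and 4 rose and 0 fell in NBD. ATF3, a stress-induced repressor of the same bZIP family, stood at 96.3, 94.3 and 195 CPM in BD, 143, 111 and 153 CPM in NBD, and 7.82, 7.96 and 173 CPM in control. Control replicate 3 was again inside the sorted range, and the log2 rise without it was 4.04 ± 0.37 in BD and 4.12 ± 0.37 in NBD. CEBPB, a partner of ATF4 at CARE sites, stood at 43.0, 50.8 and 50.8 CPM in BD, 48.6, 30.7 and 45.2 CPM in NBD, and 11.9, 13.9 and 68.8 CPM in control. It rose by 1.92 ± 0.24 in BD and 1.71 ± 0.24 in NBD without control replicate 3. That library was above every sorted one, and with it as the only control the log2 differences were -0.52 ± 0.29 and -0.74 ± 0.29, neither called. VLDLR, a lipoprotein receptor induced through this arm in other cells, fell by 1.65 in BD from a low level, at 0.483 to 0.834 CPM in BD and 2.45, 1.57 and 0.866 CPM in control.

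Enzymes of serine, glycine and one-carbon metabolism did not move in 1 direction. Of 11 tested without control replicate 3, 4 rose and 1 fell in BD, and 2 rose and 3 fell in NBD. CBS, which makes cystathionine, was called higher in both, at 2.04 to 3.21 CPM in the sorted libraries and 0.153, 0.224 and 4.18 CPM in control. Control replicate 3 exceeded every sorted library, and with it as the only control the log2 differences were -0.59 ± 0.39 in BD and -0.97 ± 0.39 in NBD, neither called. CBS is known to have a near-identical copy in the GRCh38 assembly, so its counts are uncertain. PCK2, mitochondrial phosphoenolpyruvate carboxykinase, rose by 1.45 ± 0.22 in BD and 0.87 ± 0.22 in NBD on the log2 scale. PHGDH, the first enzyme of serine synthesis, rose by 0.92 ± 0.21 in BD. In control replicates 1 to 3, PCK2 stood at 24.3, 26.5 and 49.4 CPM and PHGDH at 118, 127 and 186 CPM. ALDH18A1, which starts proline synthesis, fell by 0.80 in BD and by 1.08 in NBD, and stood at 174, 193 and 88.7 CPM in control. Between the subpopulations over all libraries, 11 of 11 of these genes had a log2 difference above 0 with a median of 0.42, and 0 were called. The lowest unadjusted p was 0.0121, for PSPH, the last enzyme of serine synthesis, at 0.60 ± 0.20.

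Among 11 amino acid transporters tested, 4 rose and 0 fell in BD, and 2 rose and 0 fell in NBD, without control replicate 3. In BD only 5 of the 11 were above 0, and the median log2 difference was -0.16, beside 0.043 over all genes. SLC1A4, a carrier of alanine and serine, stood at 46.8, 67.8 and 63.2 CPM in BD, 32.7, 39.2 and 36.0 CPM in NBD, and 21.7, 23.2 and 46.4 CPM in control. It rose by 1.41 ± 0.21 in BD and 0.70 ± 0.20 in NBD. Of 20 cytosolic tRNA synthetases, 1 rose in each subpopulation: WARS1, which is also an interferon-induced gene. It rose by 1.97 ± 0.33 in BD and 1.64 ± 0.32 in NBD. It stood at 356 to 689 CPM in BD, 320 to 562 CPM in NBD, and 132, 142 and 552 CPM in control. MARS1, whose exons overlap DDIT3, was not called.

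Of the 15 genes listed with the eIF2 kinases and subunits, only DNAJC3, an ER co-chaperone also known as an inhibitor of PERK, was called without control replicate 3. DNAJC3 is also in the list of ER chaperones, so its call is counted in both lists. It rose by 0.86 ± 0.16 in BD and 0.75 ± 0.16 in NBD. It stood at 116 to 125 CPM in BD, 105 to 117 CPM in NBD, and 66.6, 65.9 and 108 CPM in control. Of 10 sensors and processing factors tested, 1 rose and 1 fell in each subpopulation. MBTPS2, the protease that releases ATF6, fell by 1.02 in BD and by 0.84 in NBD. It stood at 21.7 to 28.8 CPM in BD, 25.6 to 29.9 CPM in NBD, and 53.2, 45.6 and 22.1 CPM in control. With control replicate 3 as the only control, its log2 difference in NBD was 0.29. Of 20 ER chaperones and folding enzymes, 3 rose and 1 fell in BD and 2 rose and 0 fell in NBD. P4HB, a protein disulfide isomerase, stood at 693, 754 and 728 CPM in BD, 538, 418 and 494 CPM in NBD, and 258, 299.6 and 608 CPM in control, and rose by 1.39 ± 0.21 in BD and 0.81 ± 0.20 in NBD. Of 24 genes of ER-associated degradation and translocation tested, 4 rose and 1 fell in BD and 3 rose and 1 fell in NBD.

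Profiles over the 9 libraries were compared by the root-mean-square difference of log2 CPM, centred and scaled to unit SD per gene, among 12591 protein-coding genes. Closest to ATF4 were TEX19 at 0.183, H2BC26 at 0.186 and ZMAT5 at 0.194, against a median of 1.26 over all genes. Its nearest fellow member was XBP1, ranked 47 at 0.313. Closest to DDIT3 were SAA2-SAA4 at 0.154, MYD88 at 0.172 and PANX1 at 0.177, and its nearest member was CHAC1, ranked 139 at 0.289. Closest to HSPA5 were SYBU at 0.476, a gene with no symbol at 0.482 and PCDHAC2 at 0.483. HSPA5 lay at 1.14 to 1.45 from the other members, where the median over all genes was 1.35. These distances describe 9 libraries that share the division within control and carry no test.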

How the data were processed

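Total RNA was depleted of rRNA and sequenced as stranded paired-end libraries from 9 HaCaT samples, 3 per group. Of the 2 RNA kits named, the one used for each library is not stated. The deposited values are raw read counts per gene, made by the authors with FastQC 0.74, Trimmomatic 0.39, STAR 2.7.11b and featureCounts on GRCh38 as listed per the submitters' processing notes. No source used here gives the gene annotation, strand setting or handling of multi-mapped reads, so overlapping genes and near-identical copies have uncertain counts. Annotated pseudogenes of the members held at most 3 counts in any library. Total counts ranged from 17128797 to 29512856.

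Counts were tested with edgeR 4.0.16 in R 4.3.3, by a two-sided quasi-likelihood test with a term per group and TMM scaling. The filter was filterByExpr, leaving 16921 genes, 17755 without control replicate 3 and 18832 with it as the only control. There were 6 residual degrees of freedom over all 9 libraries, and fewer with libraries left out. Adjustment was by Benjamini-Hochberg over all genes tested, and genes were called at an adjusted p under 0.05. CPM uses the TMM-scaled total, and RPKM merged GENCODE 29 exon lengths. The procedure was tested on simulated data. Members, pathway lists, markers and motifs were chosen with earlier results of these data known. The rule named all members and, per list and comparison, up to 4 called genes of largest change or up to 2 of lowest p; examples are drawn from these, and some single genes are not reported here. Alternatives were RLE and upper-quartile scaling, a filter of 1 CPM in 3 libraries or none, limma-voom with limma 3.58.1, DESeq2 1.42.0, a block by replicate number, only the 6 libraries compared, removal of mitochondrial rRNA genes, each library left out, and control replicate 3 as the only control.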

Additional observations from a re-analysis of the deposited data

How the results depend on the processing

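With no filter on low counts, edgeR called 7 members and 8 pathway genes in BD against control, and 2 and 2 in NBD against control, where it called 2.95% and 1.51% of all genes. DESeq2 called 1 member in BD against control and 1 pathway gene in BD against NBD. Leaving out each library in turn gave 0 to 7 members and 0 to 27 pathway genes called in BD against control, 0 to 5 and 0 to 20 in NBD against control, and 0 of either in BD against NBD. The highest counts came from leaving out control replicate 3. With the replicate number as a block, 0 members were called in each comparison. The labels tie no number to a shared culture or day. Deviations from the group means correlated at 0.036 to 0.612 between same-numbered libraries, over 0.1 in 6 of 9 pairs, and at -0.566 to 0.421 between others, over 0.1 in 3 of 18, and 6 of 9 libraries correlated best with their own number. This hints at shared numbers, but pairing was not assumed, since no label states it. With the block, standard errors for BD over NBD were smaller for every member but ASNS, TRIB3 and SESN2. For XBP1 it was 0.24 with the block against 0.38 without, and for ATF4 0.19 against 0.29. The standard errors given above are without the block and may hold spread shared by replicate number. With control replicate 3 as the only control, the log2 difference of ATF4 turned to -0.13 in BD, and in NBD it turned to -0.20 for ATF4, -0.074 for TRIB3, -0.16 for SESN2, -0.19 for XBP1 and -0.27 for PPP1R15A. Leaving out libraries, the log2 difference of BD over NBD ranged from -0.12 to 0.23 for ATF4, -0.042 to 0.13 for DDIT3, -0.17 to 0.23 for ASNS, -0.014 to 0.62 for CHAC1, -0.19 to 0.16 for HSPA5 and -0.031 to 0.57 for PPP1R15A. For HSPA5 it ranged from -0.081 to 0.22 in BD over control and from -0.046 to 0.31 in NBD over control. Apart from the filter and the libraries left out, the causes of these shifts were not tested. TRIB3, SESN2, XBP1 and HERPUD1 stayed higher in BD than in NBD under all 18 alternatives, with adjusted p-values of 0.114 or more. Depth limits ASNS most, with 48 to 143 counts per library, and reads in its shared exonic bases may be missing.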

Other observations

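MIR616, a microRNA gene that lies in an intron of DDIT3, held 3 to 66 counts per library, highest in BD replicate 3 and lowest in control replicate 2, and its counts were not tested.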
